A study of Mus musculus with 6 samples.

Results

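The potassium channel genes were taken as the protein-coding genes of the GENCODE vM21 annotation of the mouse genome (GRCm38, the assembly that mm10 denotes) whose symbol starts with Kcn. There were 94 of them among 21951 protein-coding genes, and they hold 77 pore-forming subunits and 17 auxiliary subunits and regulators. Transcripts assembled in each library were matched to them by exon overlap on the same strand. Of the 94 genes, 61 were tested, 13 had a level below 1 FPKM and 20 had no level. FPKM is the number of fragments scaled to transcript length and library size. The levels here are averages over the unique exonic bases of a gene that were assembled in at least 3 libraries. They can be set against each other between genes only as far as those bases stand for the gene. The level of Kcnmb4 rests on 463 such bases, and that of Kcna6 on bases outside its coding exon.

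The samples were lumbar spinal cords, of which the ventral tissue was taken, from mice aged 5 weeks on a C57BL/6 background, with 3 Gde2KO libraries and 3 wild-type (WT) libraries of poly-A RNA. Gde2KO denotes a knockout of Gdpd5, whose product GDE2 sits in the cell membrane and cuts the glycosylphosphatidylinositol anchor of other surface proteins. The labels do not give the allele, the sex, or whether a library held 1 animal or several, so p-values measure only the spread between these libraries. No treatment is given for either genotype.

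Potassium channels let potassium leave the cell and so bring a neuron back to rest after an action potential, set its resting potential and limit how fast it can fire. Voltage-gated (Kv) channels are tetramers of pore-forming subunits with cytoplasmic or membrane-spanning auxiliary subunits. Calcium-activated channels follow the calcium that enters during a spike, inward rectifiers (Kir) pass current best near rest, and K2P channels carry the background leak. In spinal cord, Kv1 channels sit beneath the myelin at juxtaparanodes of axons, Kv7 channels at initial segments and nodes, Kv3 channels in fast-firing neurons, and Kir4.1 in astrocytes and oligodendrocytes, where it takes up potassium from the extracellular space.

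The targeted gene separated the genotypes. Gdpd5 (chromosome 7, 99381414 to 99461877, plus strand) stood at 1.24, 1.20 and 0.946 FPKM in the Gde2KO libraries, against 5.38, 6.54 and 5.95 FPKM in the WT libraries. It fell to 0.202-fold (95% interval 0.162 to 0.253, limma adjusted p = 0.00526). The adjusted p was 0.0793 with the plain sum of transcripts, at a log2 difference of -1.45 against -2.31, and 0.155 with the replicate block. Each library held 31899 to 33791 assembled transcripts, and relative depth ran from 0.945 to 1.14 in Gde2KO and from 0.91 to 1.03 in WT. Intron chains matched the annotation for 56.3% of multi-exon transcripts in Gde2KO replicate 3 and for 49.3% to 49.8% elsewhere. Gde2KO replicate 1 was the 1 library with a transcript of the Y-linked gene Ddx3y. Of the coding bases of Ddx3y, 99.2% were assembled there and 0% in every other library. The part of sex in the differences between the genotypes was not tested. All 6 motor neuron markers of a list of cell type markers reached 1 FPKM. Of 5 dorsal root ganglion markers 1 did so, Calca, which motor neurons also express, and of 3 skeletal muscle markers none did, with Myh4 and Ckm at 0. In such bulk tissue, fewer cells of a type and less RNA per cell cannot be told apart.

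The shared feature of the pore-forming members is the selectivity filter, the short stretch that strips potassium of water. It was searched in the longest annotated coding sequence of each gene, in frame on the coding strand, as an NTN codon followed by a glycine codon (GGN), then TAN, which reads tyrosine, or TTN, which reads phenylalanine or leucine, and then another glycine codon. Of the 77 pore-forming members 75 (97.4%) held a match, of the 17 auxiliary members 0 did, and of 21727 other protein-coding genes 1081 (4.98%) did. Kcnk1 and Kcnk7 were the pore-forming members without one. Of the 14 K2P members, whose subunits carry a pair of pore loops each, 11 held 2 matches and Kcnk6 held 1. Of those 11, 8 had 1 match of each form, and Kcnk2, Kcnk12 and Kcnk13 had the TTN form in both. Outside the K2P class, the TTN form was the match in all 8 Kcnh members and in Kcnj8, Kcnj11, Kcnt1, Kcnt2 and Kcnu1. The windows below come from members of several classes, with Kcnj8 and Kcnk13 chosen for their TTN form, 5′ to 3′ on the coding strand of GRCm38. Capitals mark the 5 filter codons, the codon before the motif included.
Kcnj16: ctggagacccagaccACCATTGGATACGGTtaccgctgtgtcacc
Kcnj8: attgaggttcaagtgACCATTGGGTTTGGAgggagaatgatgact
Kcna2: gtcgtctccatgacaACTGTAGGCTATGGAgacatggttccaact
Kcnc1: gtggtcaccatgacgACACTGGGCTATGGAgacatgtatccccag
Kcng4: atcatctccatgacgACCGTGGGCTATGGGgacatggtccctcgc
Kcnh2: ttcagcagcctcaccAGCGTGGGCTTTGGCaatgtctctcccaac
Kcnma1: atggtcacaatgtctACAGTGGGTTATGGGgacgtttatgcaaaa
Kcnk13, second filter: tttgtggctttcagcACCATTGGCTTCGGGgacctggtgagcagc

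The filter of Kcnj16 lies at chr11:111024889-111024933 on the plus strand. That of Kcnj8 lies at chr6:142566433-142566477 on the minus strand. That of Kcna2 is at chr3:107105209-107105253 on the plus strand, and that of Kcnc1 at chr7:46427958-46428002 on the plus strand. On the minus strand are those of Kcng4 at chr8:119625895-119625939, Kcnh2 at chr5:24325540-24325584 and Kcnma1 at chr14:23528398-23528442. The second filter of Kcnk13 lies at chr12:100061361-100061405 on the plus strand. All are coding exon sequence.

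Expression of the potassium channel genes was concentrated in a few members. Of the 61 tested genes, 24 reached a mean of 10 FPKM over the 6 libraries, 13 lay between 5 and 10 FPKM and 24 between 1 and 5 FPKM. The mean levels of the 61 genes summed to 1252 FPKM, and the top 5 genes held 52.3% of that sum. Among those were Kcnj10 (the Kir4.1 subunit of glia), Kcnab2 (a cytoplasmic beta subunit of Kv1 channels), Kcna1 (Kv1.1) and Kcng4 (the silent subunit Kv6.4). Kcnj10 alone held 22.8%. The coefficient of variation over the 6 libraries had a median of 10.9% among the 61 members and 10.2% among all genes tested.

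**Figure D1:**
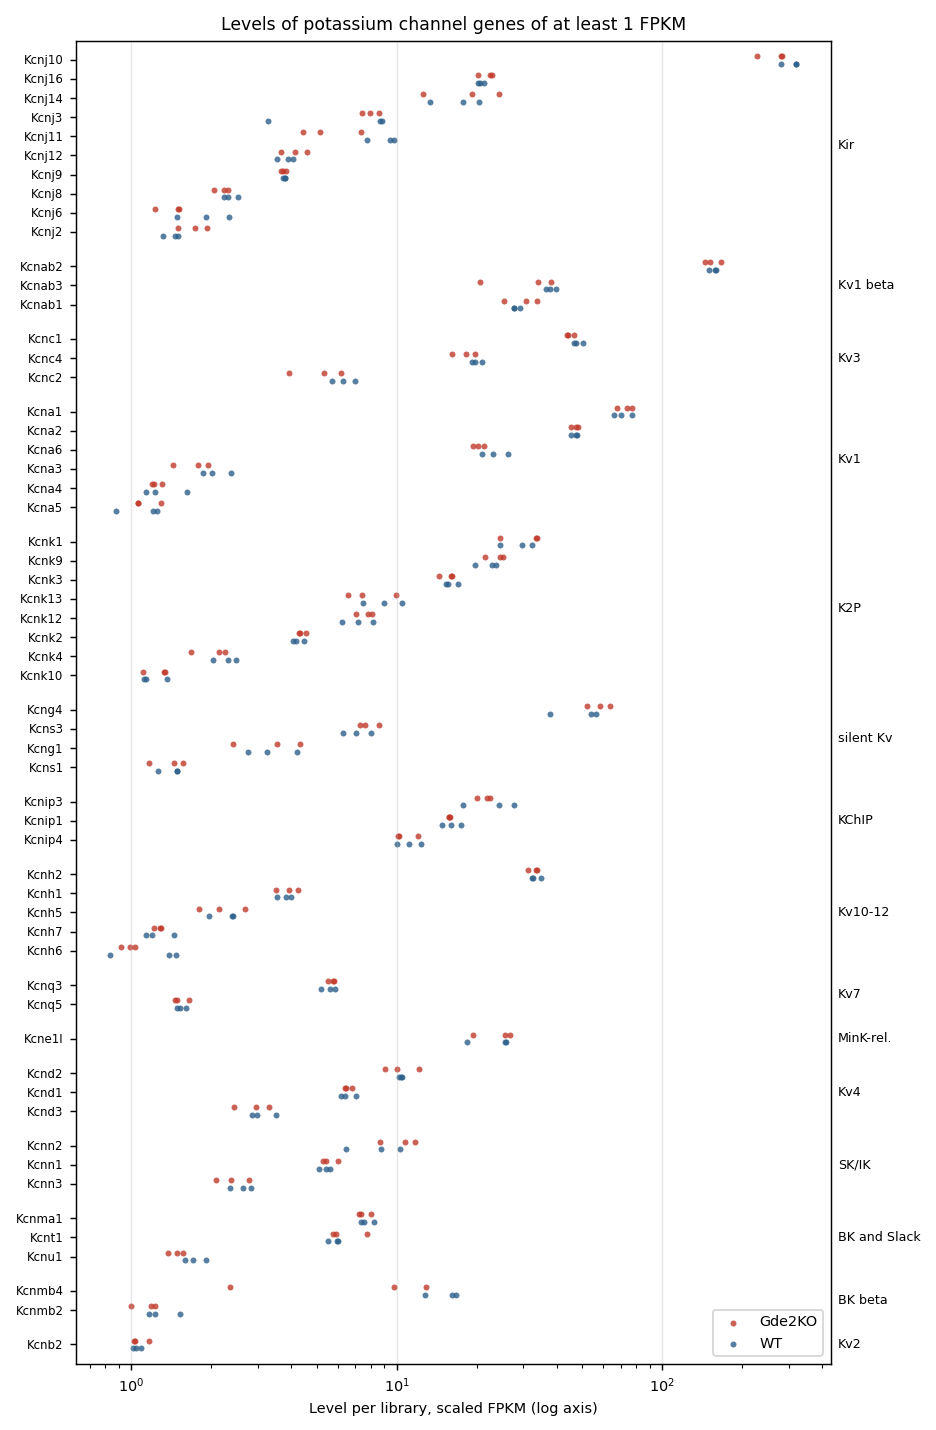
Level of 57 of the 61 tested potassium channel genes in each library, in scaled FPKM on a log axis, grouped by role and ordered by mean level within a role, with Gde2KO libraries in red drawn above WT libraries in blue. Kcnj10 stands at 227.0 to 319.7 FPKM, far above the other inward rectifiers, and most genes have their 6 points close together.

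Between the genotypes no potassium channel gene passed the test. Of 12894 genes tested with limma, 15 (0.116%) had an adjusted p under 0.05, and of the 61 members 0 did, with a smallest adjusted p of 0.882. At an unadjusted p under 0.05 stood 1 member, Kcnj11, against 504 (3.91%) of all genes. The libraries of the genotypes did not overlap for 3 of the 61 members and for 1399 (10.9%) of all genes tested. Of the members, Kcnj11 and Kcnu1 were lower in every Gde2KO library than in any WT library, where 5.79% of all genes were, and Kcnj2 was higher, where 5.06% of all genes were. The log2 difference, Gde2KO minus WT on the log2(FPKM + 0.1) scale, had a median of -0.015 over the members and of 0.0 over all genes tested. It was above 0 in 27 members and below 0 in 34.

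The intervals say how large a difference these 6 libraries leave room for. The unadjusted 95% interval of the fold lay within 1.5-fold in either direction for 48 of the 61 members (78.7%) and within 2-fold for 58 (95.1%). Among all genes tested those shares were 72.8% and 87.9%. The 3 members whose interval reached past 2-fold were Kcnj3, Kcnj11 and Kcnmb4.

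**Figure D2:**
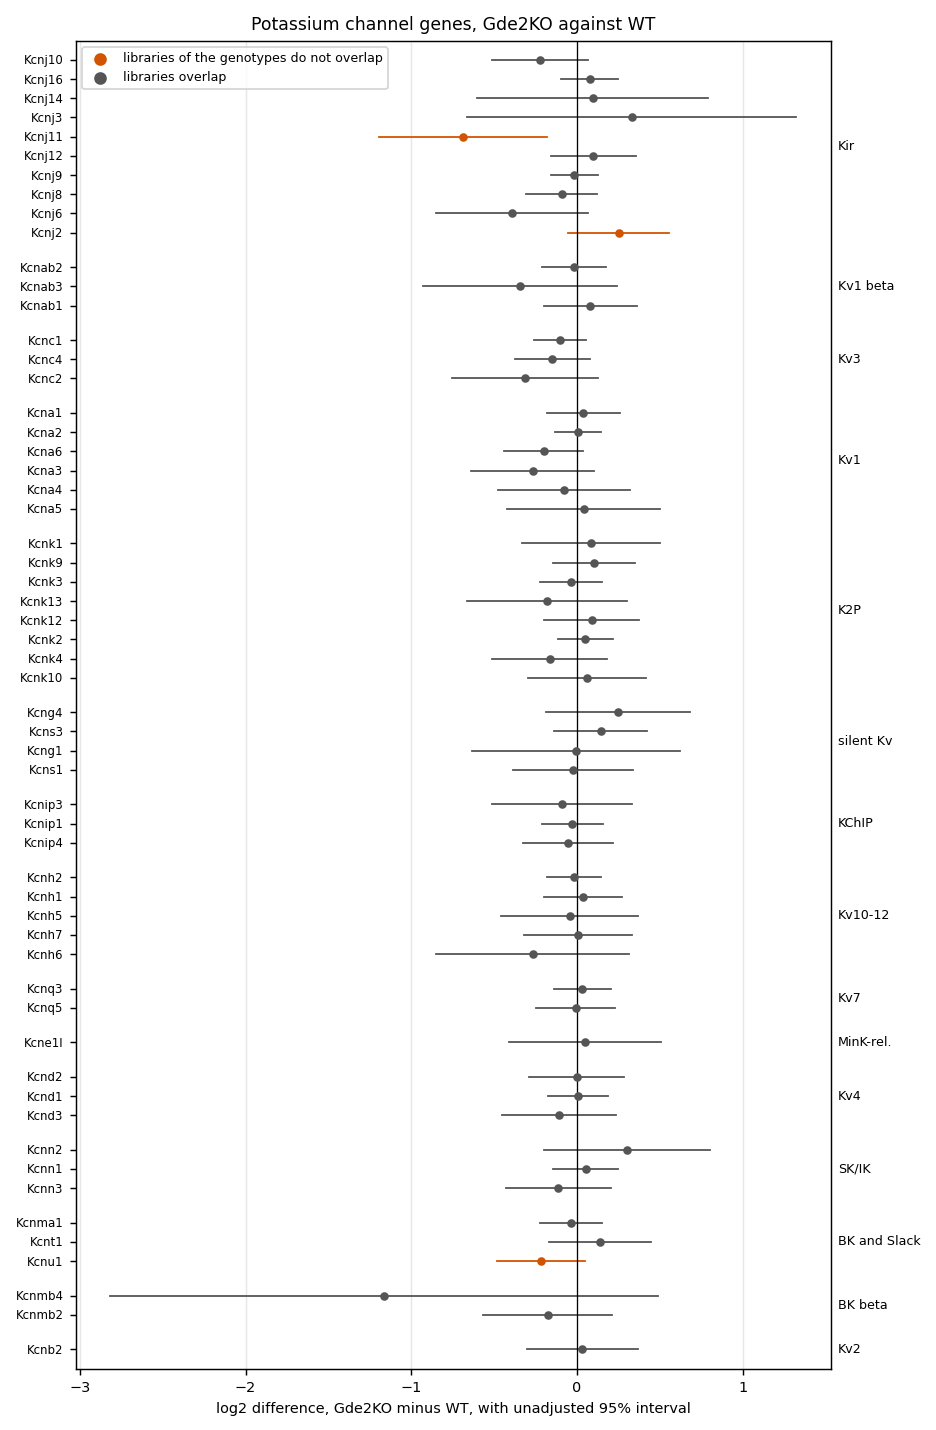
Log2 difference in level, Gde2KO minus WT, of 57 of the 61 tested members with its unadjusted 95% interval from limma, grouped by role. Points in orange are the 3 members whose libraries do not overlap between the genotypes. The intervals of all members drawn except Kcnj11 include 0, and none passed the adjusted threshold.

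The Kv1 family holds the channels of axons and their beta subunits. Kcna1 (Kv1.1, chromosome 6, 126640397 to 126646384, minus strand) stood at 73.5, 76.8 and 67.8 FPKM in Gde2KO, against 65.6, 70.1 and 76.8 FPKM in WT. Its partner Kcna2 (Kv1.2) stood at 47.3, 45.5 and 48.03 FPKM in Gde2KO, against 45.4, 47.2 and 47.6 FPKM in WT. The libraries of the genotypes overlapped for both, and the fold of Kcna2 was 1.004 (95% interval 0.911 to 1.107). The coefficient of variation of Kcna2 over the 6 libraries was 2.36%, the second lowest of the members after Kcnj9. Its log2 difference depended on the definition of the level, at 0.006 over all exons, -0.19 over coding bases and 0.32 with the plain sum of transcripts. Kcna6 (Kv1.6) stood at 21.2, 20.2 and 19.4 FPKM in Gde2KO, against 26.2, 23.0 and 21.05 FPKM in WT, with overlap through a single library of each genotype (log2 difference -0.20, limma adjusted p = 0.882). That level rests on bases outside the coding exon, of which 1.26% to 10.4% was assembled on the strand of Kcna6. Kcna3 (Kv1.3, also a channel of microglia and T cells) averaged 1.72 ± 0.260 FPKM in Gde2KO and 2.09 ± 0.263 FPKM in WT (SD, n = 3 each). Kcna4 and Kcna5 were at 1 to 2 FPKM, and Kcna7 and Kcna10 had no level.

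Among the beta subunits, Kcnab2 (chromosome 4, 152390742 to 152477871, minus strand) stood at 151.8, 166.0 and 144.6 FPKM in Gde2KO, against 157.7, 149.7 and 160.0 FPKM in WT. Its groups overlapped, with a fold of 0.988 (0.863 to 1.131). Kcnab1, which speeds inactivation of Kv1 channels, averaged 29.9 ± 4.23 FPKM in Gde2KO and 28.1 ± 0.821 FPKM in WT (SD, n = 3 each). Kcnab3 stood at 34.2, 38.1 and 20.6 FPKM in Gde2KO, against 36.4, 37.9 and 39.9 FPKM in WT, so that Gde2KO replicate 3 alone was low. In that library the last exon of its assembled transcript held 19 bases, against 968 in the other 2 Gde2KO libraries, and 62.5% of its counted bases were assembled. Without Gde2KO replicate 3 the log2 difference of Kcnab3 was -0.08, against -0.34 with all libraries (limma adjusted p = 0.882).

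Kv3 channels open at high voltage and close fast. Kcnc1 (Kv3.1, chromosome 7, 46396497 to 46438704, plus strand) stood at 43.6, 46.5 and 44.2 FPKM in Gde2KO, against 47.4, 46.4 and 50.3 FPKM in WT. The Kcnc1 groups overlapped through Gde2KO replicate 2 and WT replicate 2 (fold 0.932, 0.837 to 1.038). Kcnc4 (Kv3.4), named among the 12 members of smallest unadjusted p, averaged 18.1 ± 1.84 FPKM in Gde2KO and 20.01 ± 0.898 FPKM in WT. Kcnc2 (Kv3.2) averaged 5.13 ± 1.12 FPKM in Gde2KO and 6.33 ± 0.635 FPKM in WT (SD, n = 3 each). Its log2 difference was -0.32 over all exons and 0.02 over coding bases, and 54.5% of its counted bases were assembled in Gde2KO replicate 1.

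Kv2 channels cluster on the cell body and proximal dendrites of neurons, motor neurons included. Kcnb2 (Kv2.2) was near 1 FPKM in every library. The silent Kv5, Kv6, Kv8 and Kv9 subunits form no channel of their own and alter Kv2 channels when they join them. Of 10 such members 4 were tested, and Kcng4 was 5th of all members by level. Kcng4, which in mice is high in motor neurons of fast motor units, stood at 63.8, 58.2 and 51.9 FPKM in Gde2KO, against 37.9, 54.1 and 56.2 FPKM in WT. The low library was WT replicate 1, and without it the log2 difference was 0.07, against 0.25 with all libraries (limma adjusted p = 0.882). WT replicate 1 was also lowest in the summed level of the 6 motor neuron markers, at 159.9 FPKM. That sum was 192.3 to 215.9 FPKM over the Gde2KO libraries and 183.3 and 192.5 FPKM in the other WT libraries. The single markers were split. Slc18a3 (31.7 FPKM), Prph (71.4 FPKM) and Mnx1 were lowest in WT replicate 1 of the 6 libraries. Chat was highest there of the 6 libraries, at 23.7 FPKM, and Slc5a7 and Isl1 were higher there than in the other WT libraries. The part of motor neuron content in the Kcng4 values was not tested. Kcns3 (Kv9.3) stood at 6.30 to 8.62 FPKM over the 6 libraries and Kcng1 at 2.43 to 4.32 FPKM.

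Kv4 channels carry the transient A-type current of dendrites, and the KChIP proteins are their calcium-binding auxiliary subunits. Kcnd2 (Kv4.2) stood at 12.2, 10.1 and 9.05 FPKM in Gde2KO, against 10.5, 10.4 and 10.2 FPKM in WT. The WT values lay inside the Gde2KO range, with a fold of 1.0 (0.820 to 1.220). Kcnd1 averaged 6.54 ± 0.222 FPKM in Gde2KO and 6.53 ± 0.449 FPKM in WT, and Kcnd3 averaged 2.90 ± 0.432 FPKM in Gde2KO and 3.12 ± 0.345 FPKM in WT (SD, n = 3 each). Among the KChIP genes, Kcnip3 (KChIP3) stood at 21.9, 22.5 and 20.03 FPKM in Gde2KO, against 27.7, 17.8 and 24.2 FPKM in WT, with the Gde2KO libraries inside the WT range. Kcnip1 averaged 15.8 ± 0.0810 FPKM in Gde2KO and 16.1 ± 1.29 FPKM in WT, and Kcnip4 averaged 10.8 ± 1.07 FPKM in Gde2KO and 11.2 ± 1.16 FPKM in WT (SD, n = 3 each). Kcnip2 was below 1 FPKM.

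Of the KChIP genes, Kcnip1, Kcnip3 and Kcnip4 have several listed start sites, and the assembled 5′ ends near a listed start lay mainly at 1 of them. RefSeq lists 3 starts for Kcnip3 and 3 for Kcnip1. Kcnip4 transcripts starting within 100 bases of its listed start at 49285659 of chromosome 5 held 3.16 to 4.96 FPKM. The level of the Kcnip4 gene was 10.06 to 12.4 FPKM, so these transcripts were a minor part of it. All 6 libraries held a Kcnip3 transcript starting within 100 bases of position 127521392 of chromosome 2, at 18.2 to 28.7 FPKM, and none held one at 127522094 or at 127482499. For Kcnip1, all 6 libraries held a transcript starting at 33843686 of chromosome 11, at 14.6 to 19.3 FPKM, WT replicates 1 and 3 also held one at 33993193, at 3.78 and 3.03 FPKM, and none held one at 33680682. Kcna2 has 1 listed start, at 107101567 of chromosome 3, and its nearest assembled ends lay 4 to 24 bases downstream of it. The windows run from 250 bases before to 50 bases after a start, in RefSeq for GRCm38.p6. A start is called used where an assembled 5′ end lay within 100 bases of it, which is no direct measure of transcription starting there. For Kcnip3 the used start is shown beside the unused starts. For Kcnip1 it is shown beside a start used in 2 libraries, and the start at 33680682 is not shown. Kcna2 is shown with its 1 listed start. Capitals mark GGGCGG or its reverse complement CCGCCC, the GC box letters.
Kcnip3, used start at 127521392: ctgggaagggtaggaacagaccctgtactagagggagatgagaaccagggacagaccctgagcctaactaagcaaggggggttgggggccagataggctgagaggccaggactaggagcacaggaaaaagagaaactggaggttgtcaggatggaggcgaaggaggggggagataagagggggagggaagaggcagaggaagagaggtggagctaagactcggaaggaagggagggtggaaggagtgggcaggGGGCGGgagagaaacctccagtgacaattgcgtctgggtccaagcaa
Kcnip3, unused start at 127522094: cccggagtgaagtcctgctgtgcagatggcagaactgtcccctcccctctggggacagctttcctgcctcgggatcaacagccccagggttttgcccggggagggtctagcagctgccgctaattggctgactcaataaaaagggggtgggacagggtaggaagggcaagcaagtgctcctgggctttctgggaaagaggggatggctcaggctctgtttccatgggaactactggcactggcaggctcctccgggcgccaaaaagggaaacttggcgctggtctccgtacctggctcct
Kcnip3, unused start at 127482499: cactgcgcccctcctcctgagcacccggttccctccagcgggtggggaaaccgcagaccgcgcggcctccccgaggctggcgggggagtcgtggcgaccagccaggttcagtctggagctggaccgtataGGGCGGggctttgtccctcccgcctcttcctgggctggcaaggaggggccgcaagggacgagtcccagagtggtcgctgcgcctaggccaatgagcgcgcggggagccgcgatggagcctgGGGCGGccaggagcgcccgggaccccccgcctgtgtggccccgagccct
Kcnip1, used start at 33843686: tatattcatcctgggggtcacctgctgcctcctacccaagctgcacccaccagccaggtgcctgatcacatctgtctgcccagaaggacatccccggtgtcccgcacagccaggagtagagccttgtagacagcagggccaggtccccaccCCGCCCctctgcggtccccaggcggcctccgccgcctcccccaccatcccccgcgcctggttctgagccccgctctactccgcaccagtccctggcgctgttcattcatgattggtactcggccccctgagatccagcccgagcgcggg
Kcnip1, start used in 2 libraries at 33993193: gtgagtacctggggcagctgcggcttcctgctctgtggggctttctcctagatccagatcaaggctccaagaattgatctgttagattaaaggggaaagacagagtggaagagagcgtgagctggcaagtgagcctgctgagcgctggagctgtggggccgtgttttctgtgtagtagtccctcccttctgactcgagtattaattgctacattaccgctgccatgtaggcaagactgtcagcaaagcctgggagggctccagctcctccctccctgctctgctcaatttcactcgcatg
Kcna2, used start at 107101567: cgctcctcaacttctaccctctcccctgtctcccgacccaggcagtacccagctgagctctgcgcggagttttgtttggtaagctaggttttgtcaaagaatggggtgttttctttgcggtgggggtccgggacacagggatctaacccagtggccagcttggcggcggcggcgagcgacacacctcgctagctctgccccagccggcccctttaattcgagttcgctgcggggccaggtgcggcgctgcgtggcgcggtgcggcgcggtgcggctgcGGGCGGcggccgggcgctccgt

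The Kcnip3 windows are chr2:127521343-127521642 for the start in use and chr2:127522045-127522344 and chr2:127482450-127482749 for the others, all on the minus strand. The Kcnip1 windows are chr11:33843637-33843936 and chr11:33993144-33993443, on the minus strand, and that of Kcna2 is chr3:107101317-107101616, on the plus strand. The used Kcnip3 start had 1 GC box and 4 CpG dinucleotides, against 2 and 28 at the unused start 127482499 and 0 and 8 at the unused start 127522094. The used Kcnip1 start had 1 GC box and 16 CpG, against 0 and 7 at 33993193, and the Kcna2 start had 1 GC box and 31 CpG. Over the 94 listed starts of 69 members, 47.9% of windows held GGGCGG on either strand, against 35.7% of the 32851 windows of all genes. TATAAA on either strand stood in 5 of the member windows (5.32%), against 13.6% of all windows. Median CpG was 9 in member windows and 7 in all windows.

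Over the members as a whole, assembled starts and listed starts often lay apart. Among the 44 tested members with a listed start and a stranded transcript in all 6 libraries, the nearest assembled 5′ end lay within 100 bases of a listed start in every library for 10, in some libraries for 17 and in none for 17. The 10 were Kcna2, Kcna4, Kcnh1, Kcnh2, Kcnip1, Kcnip3, Kcnip4, Kcnj3, Kcnj9 and Kcnn3. By its median over the libraries the end lay more than 100 bases upstream for 14 members and downstream for 7. The Kcnj10 transcripts started 907 to 934 bases upstream of the listed start in all 6 libraries, and those of Kcnk1 started 1357 to 1478 bases upstream. Those of Kcnab2 started 369 to 630 bases upstream of the nearest listed start. Kcnmb4 transcripts started 289 to 291 bases downstream. Assembled ends depend on coverage and are not a direct measure of where transcription starts.

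**Figure D3:**
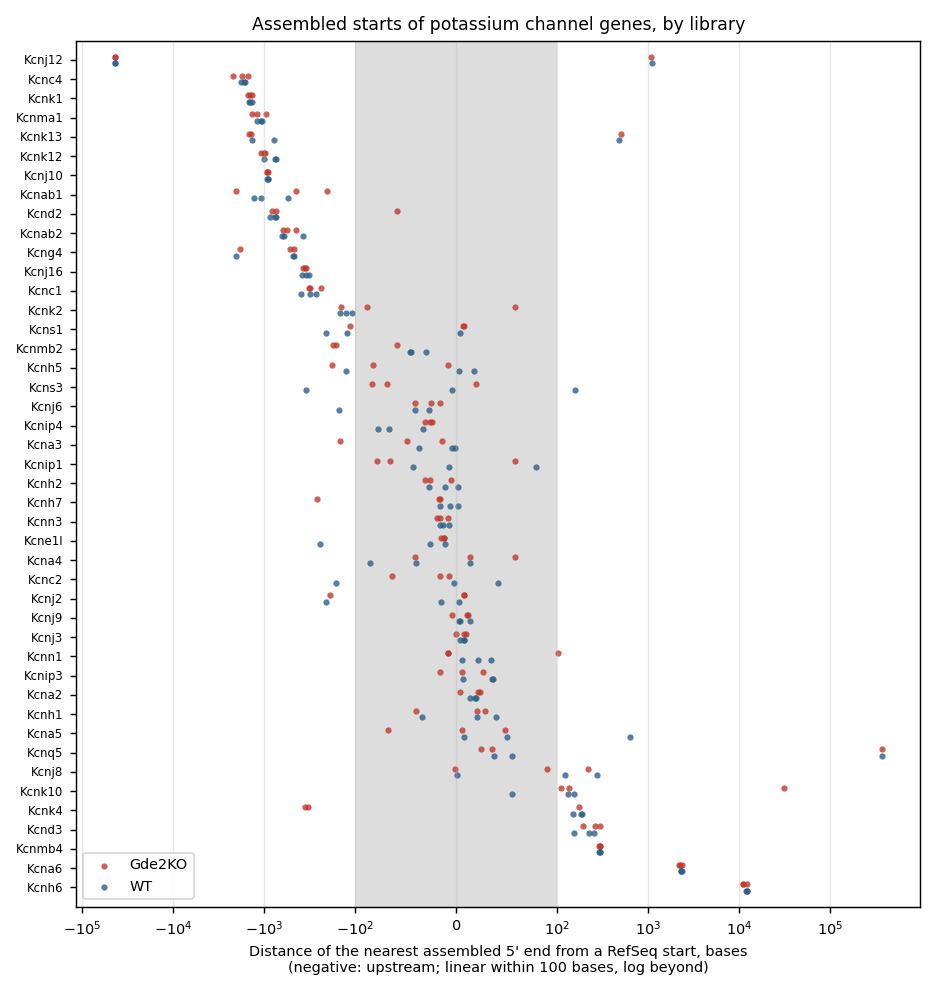
Distance of the nearest assembled 5′ end from a RefSeq start for 44 tested members, per library (Gde2KO red, above; WT blue), in bases, negative upstream, on an axis that is linear within 100 bases (grey band) and logarithmic beyond. Kcnj10, Kcnk1 and Kcnj16 lie upstream with little spread between libraries, and 10 members lie inside the grey band in all 6 libraries.

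Kv7 channels give the M-current, which restrains repeated firing. Kcnq3 (Kv7.3) stood at 5.77, 5.52 and 5.79 FPKM in Gde2KO, against 5.89, 5.64 and 5.21 FPKM in WT, with overlap and a fold of 1.022 (0.907 to 1.151). Kcnq1 was below 1 FPKM. In the Kv10 to Kv12 group, Kcnh2 (the ERG channel) stood at 33.9, 33.5 and 31.3 FPKM in Gde2KO, against 32.2, 34.9 and 32.7 FPKM in WT, a fold of 0.987 (0.883 to 1.104). It made up 79.8% of the summed level of its group in Gde2KO and 79.5% in WT. Kcnh1 (EAG) was at 3.53 to 4.25 FPKM and Kcnh5 at 1.81 to 2.68 FPKM over the 6 libraries.

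Calcium-activated channels were of intermediate level. Kcnn2 (SK2, a channel of the afterhyperpolarization of motor neurons) stood at 8.63, 11.7 and 10.8 FPKM in Gde2KO, against 6.45, 10.3 and 8.74 FPKM in WT, with overlap (fold 1.232, 0.870 to 1.744). Kcnn1 averaged 5.57 ± 0.404 FPKM in Gde2KO and 5.36 ± 0.262 FPKM in WT, and Kcnn3 averaged 2.42 ± 0.342 FPKM in Gde2KO and 2.61 ± 0.233 FPKM in WT (SD, n = 3 each). Kcnma1, the pore of the BK channel, stood at 8.01, 7.35 and 7.204 FPKM in Gde2KO, against 8.25, 7.56 and 7.35 FPKM in WT, a fold of 0.9746 (0.856 to 1.109). Kcnt1 (Slack, opened by sodium) averaged 6.47 ± 1.07 FPKM in Gde2KO and 5.82 ± 0.276 FPKM in WT (SD, n = 3 each), and its log2 difference was 0.14 over all exons and -0.17 over coding bases. Kcnu1, known as a channel of sperm in mice, stood at 1.38, 1.49 and 1.57 FPKM in Gde2KO, against 1.71, 1.91 and 1.60 FPKM in WT. The groups did not overlap, though Gde2KO replicate 3 and WT replicate 3 were close, and the fold was 0.861 (0.715 to 1.036, limma adjusted p = 0.882). Its longest assembled transcript held 1333 to 1734 bases in each library, against a coding sequence of 3363 bases.

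Of the BK beta subunits, Kcnmb4, the neuronal one, stood at 2.35, 12.9 and 9.80 FPKM in Gde2KO, against 16.8, 16.2 and 12.8 FPKM in WT. Gde2KO replicate 1 was low, and Gde2KO replicate 2 lay just above WT replicate 3. Its log2 difference of -1.16 (95% interval -2.82 to 0.49, limma adjusted p = 0.882) was the largest in size among the members, and it was -0.42 without Gde2KO replicate 1. The level rests on 463 counted bases, the gene was assembled as 2 separate transcripts in each library, and 55.5% of those bases were assembled in Gde2KO replicate 2. By fragments per gene, in which assembled length is no divisor, the log2 difference was -0.50. Kcnmb2 averaged 1.14 ± 0.125 FPKM in Gde2KO and 1.31 ± 0.191 FPKM in WT (SD, n = 3 each), Kcnmb1, the smooth muscle subunit, was below 1 FPKM and Kcnmb3 had no level.

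The inward rectifiers held the most abundant member and the one with the smallest p. Kcnj10 (Kir4.1, chromosome 1, 172341210 to 172374085, plus strand) stood at 280.5, 282.6 and 227.0 FPKM in Gde2KO, against 280.9, 318.8 and 319.7 FPKM in WT. The groups overlapped through WT replicate 1, and the fold was 0.857 (0.700 to 1.048, limma adjusted p = 0.882). The last exon of its transcript held 6793 bases in Gde2KO replicate 3, the lowest library, and 4994 to 5047 bases in the others, and by fragments per gene the log2 difference was -0.11, against -0.22 per base. Kcnj16 (Kir5.1), which joins Kir4.1 in heteromers, stood at 22.8, 22.5 and 20.2 FPKM in Gde2KO, against 20.2, 21.3 and 20.6 FPKM in WT. Summed markers of astrocytes, all 7 of them above 1 FPKM, ran from 1196 to 1280 FPKM in Gde2KO and from 1059 to 1281 FPKM in WT. The oligodendrocyte markers, also all 7 above 1 FPKM, ran from 7327 to 9376 FPKM in Gde2KO and from 6306 to 9141 FPKM in WT. The part of glial content in the Kcnj10 values was not tested.

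Kcnj11 encodes Kir6.2, the pore of channels that close when ATP is high, and lies on chromosome 7 at 46093953 to 46100764 on the minus strand. It stood at 4.44, 7.36 and 5.13 FPKM in Gde2KO, against 9.81, 9.47 and 7.71 FPKM in WT. Every Gde2KO library lay below every WT library, and the closest were Gde2KO replicate 2 and WT replicate 3. The fold was 0.621 (95% interval 0.436 to 0.884), with a limma unadjusted p of 0.0167 and an adjusted p of 0.882, so Kcnj11 did not pass. The log2 difference was -0.69 over all exons, -0.70 over coding bases and -0.48 by fragments per gene, and it stayed below 0 in all 20 alternatives. The unadjusted p was 0.0538 without Gde2KO replicate 3 and 0.0525 without WT replicate 1. The gene was assembled as 2 to 5 transcripts per library. Its sulfonylurea receptor partner Abcc8 stood at 4.87, 5.19 and 5.54 FPKM in Gde2KO, against 4.68, 4.63 and 5.73 FPKM in WT, a fold interval of 0.866 to 1.249. The other pair of subunits of this channel class, Kcnj8 (Kir6.1) and Abcc9, which mark mural cells of vessels, stood at 2.06 to 2.52 FPKM and 1.71 to 2.34 FPKM over the 6 libraries.

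**Figure D4:**
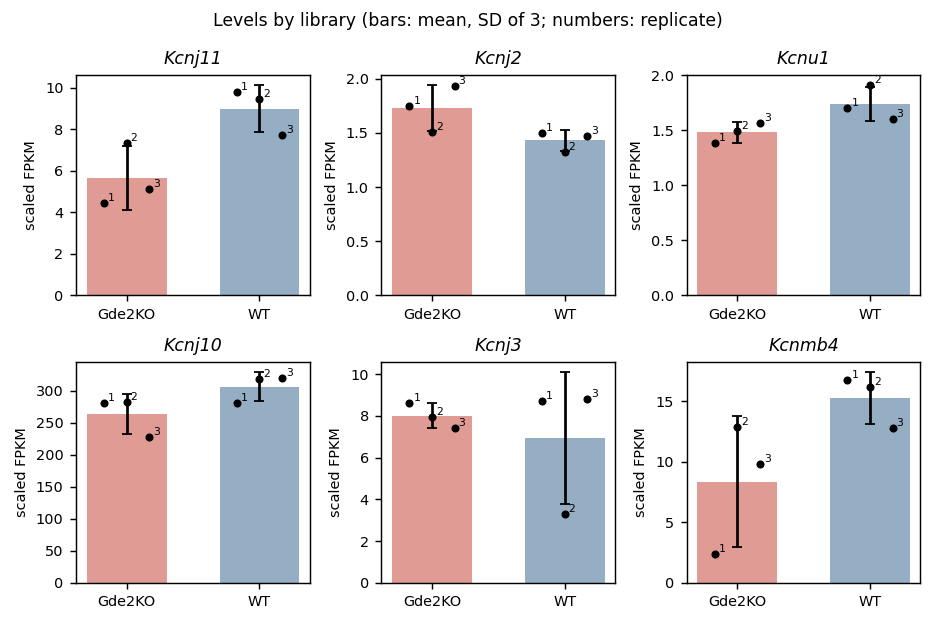
Level of 6 members in each library (points, with replicate numbers) with the mean and SD of 3 libraries per genotype as bars, in scaled FPKM on axes that start at 0. The upper row holds the 3 members whose libraries do not overlap, and the lower row holds Kcnj10 and 2 genes, Kcnj3 and Kcnmb4, in which 1 library stands far below the others.

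Kcnj2 (Kir2.1) stood at 1.75, 1.51 and 1.93 FPKM in Gde2KO, against 1.503, 1.32 and 1.47 FPKM in WT. Its groups did not overlap, though Gde2KO replicate 2 and WT replicate 1 were nearly equal, and the fold was 1.190 (0.963 to 1.472, limma adjusted p = 0.882). Kcnj6 (GIRK2, a G-protein-gated subunit) averaged 1.42 ± 0.165 FPKM in Gde2KO and 1.91 ± 0.421 FPKM in WT (SD, n = 3 each), with overlap. Kcnj14 (Kir2.4), 3rd of the inward rectifiers by level and known from motor neurons of the rat brainstem, stood at 19.1, 12.6 and 24.3 FPKM in Gde2KO, against 13.4, 17.7 and 20.4 FPKM in WT. Kcnj3 (GIRK1) stood at 8.62, 7.94 and 7.43 FPKM in Gde2KO, against 8.69, 3.29 and 8.81 FPKM in WT. In the low library, WT replicate 2, the last exon of its longest transcript held 50 bases, against 3279 to 3402 elsewhere, and 37.0% of counted bases were assembled. Over coding bases the log2 difference of Kcnj3 was -0.09, against 0.33 over all exons. Kcnj9 (GIRK3) stood at 3.68 to 3.83 FPKM over the 6 libraries, with the lowest coefficient of variation of the members, 1.53%. Kcnj1, Kcnj4, Kcnj5, Kcnj13 and Kcnj15 had no level.

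K2P leak channels were led by Kcnk1 (TWIK1), at 24.5, 33.4 and 33.9 FPKM in Gde2KO, against 24.4, 29.5 and 32.3 FPKM in WT. Kcnk9 (TASK3) stood at 24.4, 21.5 and 25.2 FPKM in Gde2KO, against 19.8, 22.9 and 23.6 FPKM in WT. Kcnk3 (TASK1), which is opened by volatile anaesthetics and closed by acid, stood at 16.2, 14.5 and 16.1 FPKM in Gde2KO, against 15.3, 15.6 and 16.97 FPKM in WT. The groups overlapped for all of them, with limma adjusted p from 0.882 to 0.933. Kcnk12 and Kcnk13 stood at 6.24 to 10.5 FPKM, Kcnk2 at 4.09 to 4.57 FPKM, and Kcnk4 and Kcnk10 at 1.11 to 2.49 FPKM over the 6 libraries. Of the MinK-related subunits Kcne1l (the mouse Kcne5 gene, on chromosome X) was the 1 tested member, at 26.8, 25.5 and 19.5 FPKM in Gde2KO, against 25.5, 25.7 and 18.4 FPKM in WT. Kcne4 was below 1 FPKM, and Kcne1, Kcne2 and Kcne3 had no level.

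Of the 13 members below 1 FPKM on average, which were not tested, 3 had libraries that did not overlap, as did 305 of 2523 genes (12.1%) at such levels. Kcnk5 (TASK2) stood at 0.768, 0.942 and 0.740 FPKM in Gde2KO, against 1.187, 1.09 and 1.151 FPKM in WT. Kcnmb1 stood at 0.602, 0.532 and 0.505 FPKM in Gde2KO, against 0.911, 0.685 and 0.664 FPKM in WT. Kcnf1 stood at 0.246, 0.313 and 0.293 FPKM in Gde2KO, against 0.245, 0.246 and 0.234 FPKM in WT, with Gde2KO replicate 1 and WT replicate 2 nearly equal. Of the 20 genes with no level, 18 had no assembled transcript in any library, while Kcnrg had 1 in 1 library and Kcnk7 in 2. Absence from an assembly does not show absence of RNA.

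Summed over the tested members of a role, the Kir group came to 330.8 ± 28.4 FPKM in Gde2KO and 373.6 ± 23.7 FPKM in WT (SD, n = 3 each), of which Kcnj10 made up 79.5% in Gde2KO and 82.0% in WT. The Kv1 beta subunits came to 215.0 ± 22.5 FPKM in Gde2KO and 221.9 ± 5.41 FPKM in WT. The pores they bind, Kv1, came to 144.0 ± 4.10 FPKM in Gde2KO and 145.5 ± 3.797 FPKM in WT, so the summed level of the beta subunit genes was above that of the pore genes in both genotypes. Of the Kv1 sum, 13.8% to 18.5% per library was Kcna6, whose level rests on bases outside its coding exon. The auxiliary KChIP genes came to 48.0 ± 1.99 FPKM in Gde2KO and 50.5 ± 6.21 FPKM in WT, above the Kv4 pores at 19.9 ± 2.11 FPKM in Gde2KO and 20.01 ± 0.242 FPKM in WT. The silent subunits came to 70.6 ± 5.78 FPKM in Gde2KO and 61.3 ± 11.2 FPKM in WT (SD, n = 3 each).

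**Figure D5:**
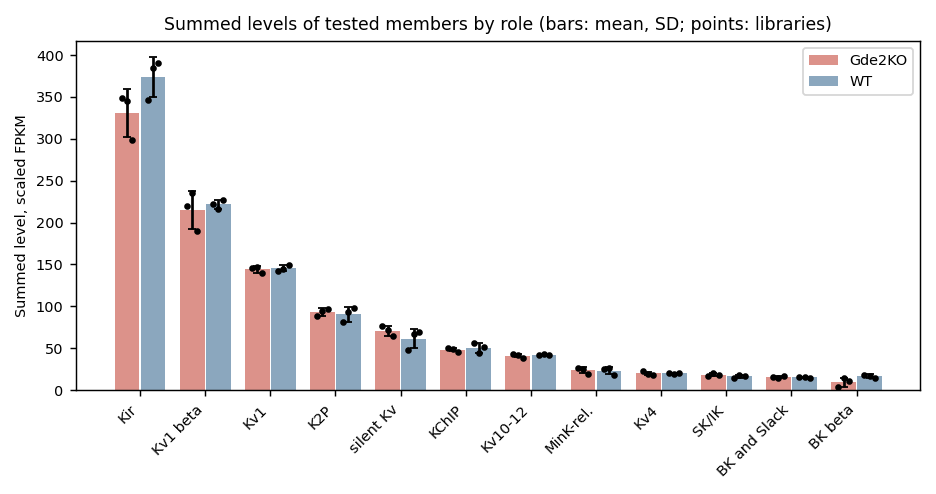
Summed level of the tested members of 12 roles in scaled FPKM, with bars for the mean of 3 libraries (Gde2KO left, WT right), error bars for the SD and points for libraries. Inward rectifiers stand highest of those drawn and Kv1 beta subunits follow, in both genotypes; the Kv2, Kv3 and Kv7 groups are not drawn.

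Ratios within a library do not depend on its scaling. Of 7 ratios between members that share a channel or a class, 2 did not overlap between the genotypes. Kcnj10 to Kcnj16 was 12.3, 12.5 and 11.2 in Gde2KO, against 13.9, 14.95 and 15.6 in WT. Kcnk3 to Kcnk9 was 0.665, 0.672 and 0.639 in Gde2KO, against 0.773, 0.682 and 0.719 in WT. Each had an exact two-sided permutation p of 0.1, and 0.35 after Benjamini-Hochberg adjustment over the 7 ratios. As 0.1 is the smallest p that 3 libraries against 3 allow, no ratio could pass 0.05, so the test decides nothing. The 7 ratios were named after their values were seen, and no share over other gene pairs is given. The log2 ratio of Kcnj10 to Kcnj16 differed by -0.34 to -0.18 over the alternatives and that of Kcnk3 to Kcnk9 by -0.18 to -0.06. Kcna1 to Kcna2 was 1.55 ± 0.140 in Gde2KO and 1.52 ± 0.0883 in WT (SD, n = 3 each).

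A list of 40 partner genes covers proteins that place or tune these channels. Of these, 36 were tested, 0 had a limma adjusted p under 0.05 and 0 had an unadjusted p under 0.05, with 2 not overlapping between the genotypes (10.9% of all genes), 18 above and 18 below 0 and a median log2 difference of -0.003, against 0.0 over all genes. Of the 5 of smallest unadjusted p, all with a limma adjusted p of 0.882, Ank3, Epb41l3 and Hcn3 are given here. Ank3 (ankyrin G), which holds Kv7 channels at initial segments, stood at 30.9, 29.9 and 27.4 FPKM in Gde2KO, against 33.4, 31.1 and 32.4 FPKM in WT, without overlap. The other without overlap was Vapb, an endoplasmic reticulum protein that binds Kv2 channels, at 28.3, 28.1 and 32.7 FPKM in Gde2KO, against 27.6, 27.4 and 28.03 FPKM in WT, with Gde2KO replicate 2 and WT replicate 3 nearly equal. Epb41l3 (protein 4.1B of the juxtaparanode) had a log2 difference of -0.17 and the cation channel Hcn3 of -0.29, both with overlap. Cntnap2 (Caspr2), which gathers Kv1 channels at juxtaparanodes, stood at 15.3, 15.7 and 15.2 FPKM in Gde2KO, against 16.2, 15.4 and 14.8 FPKM in WT, a fold interval of 0.898 to 1.103. Dpp6, the membrane partner of Kv4, stood at 51.0, 38.2 and 38.4 FPKM in Gde2KO, against 40.1, 49.03 and 54.9 FPKM in WT. Cntnap2, Dpp6 and Vapb were named after their values were seen.

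Isoforms, defined by their exact intron chain, were also compared. Members had 314 distinct chains over the 6 libraries, of which 183 were in 1 library only, 34 in all 6 and 85 in the annotation. Of the 34 chains in all 6 libraries, which belong to 32 members, 26 were annotated. Among 2670 isoforms tested over all genes, 1 (0.0375%) had an adjusted p under 0.05 with limma on the log-odds of its share, and 112 (4.19%) had an unadjusted p under 0.05. Of 15 isoforms of 13 members, 0 passed the adjusted threshold and 0 had an unadjusted p under 0.05. The standard error of the log2-odds difference ran from 0.21 to 4.01 over these 15. The annotated 15-intron chain of Kcnab2 made up 66.6%, 47.5% and 56.2% of the gene in Gde2KO, against 79.2%, 63.3% and 63.2% in WT. The shorter Kcnab2 chain of 6 introns had 25.25% to 43.8% in Gde2KO and 20.8% to 36.8% in WT. The 2-intron chain of Kcna2 made up 42.7%, 36.65% and 37.0% in Gde2KO, against 98.4%, 38.7% and 42.5% in WT. In 5 libraries the longest Kcna2 transcript was a single exon of 7111 to 7129 bases, and in WT replicate 1 the longest transcript ran through all 3 exons with 11563 bases.

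The other isoforms of smallest p were those of Kcnj2, Kcnk13 and Kcnc2. The spliced Kcnj2 chain had 32.4%, 20.7% and 53.0% in Gde2KO, against 40.7%, 73.7% and 54.1% in WT. The 2-intron Kcnk13 chain had 45.7%, 26.7% and 63.3% in Gde2KO, against 37.5%, 16.15% and 33.4% in WT. The 4-intron Kcnc2 chain had 100%, 100% and 81.9% in Gde2KO, against 44.2%, 100% and 35.7% in WT. All overlapped, with limma adjusted p of 0.870. The 2 assembled Kcnc4 chains split the gene almost alike in every library, with the annotated one at 53.35% to 54.8% in Gde2KO and 54.5% to 59.1% in WT.

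Several members lie next to each other in the genome, and neighbours differed widely in level. Within 200 kb of each other there were 10 pairs. Kcnj9 and Kcnj10 are 11891 bases apart on chromosome 1 at 3.76 and 284.9 FPKM, a ratio of 75.7. Kcnj16 and Kcnj2, 38195 bases apart on chromosome 11, stood at 21.3 and 1.58 FPKM. The Kv1 cluster of chromosome 3 holds Kcna3, Kcna2 and Kcna10 at 1.90 FPKM, 46.8 FPKM and no level, and that of chromosome 6 holds Kcna5, Kcna1 and Kcna6 at 1.13, 71.8 and 21.9 FPKM. On chromosome 7, which carries the targeted gene, lie 9 members, of which 4 were tested, and Kcnj11 is 53.3 Mb from Gdpd5. The nearest, Kcne3 at 0.715 Mb, had no level.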

How the data were processed

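Poly-A RNA libraries were sequenced from 3 Gde2KO and 3 WT ventral lumbar spinal cords. Per the submitters' processing notes the authors used FastQC, TopHat2 2.1.1, Cufflinks 2.2.1 and Cuffdiff 2.2.1 with build mm10. Of FastQC they name no version. Each deposited file is 1 library's Cufflinks assembly, per the file headers of its lines, with other attributes such as the FPKM made by the authors in text form and no reference gene names. Fragment totals per library are not in these tables, so depth is given as relative depth, from the coverage per FPKM, and no counting interval is given.

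Transcripts of at least 200 exonic bases were assigned to same-strand GENCODE vM21 genes whose exons they overlapped. Those with no assembled strand (13.1% to 14.1% per library) counted at bases without an exon on the opposite strand. A gene's level is the summed FPKM per base, averaged over its unique exonic bases assembled in at least 3 libraries, and scaled by median-of-ratios factors of 0.989 to 1.04. Genes with 200 such bases and a mean of 1 FPKM were tested with R 4.3.3 and limma 3.58.1 on log2 of the FPKM plus a pseudocount of 0.1, with trend and robust moderation, two-sided, with Benjamini-Hochberg adjustment over all genes at a threshold of 0.05. Folds on that scale understate differences of low genes. A level of 0 can be a failed assembly. Isoforms with a share of 10% to 90% of a gene's plain sum of transcript FPKM, where that sum averaged at least 5 FPKM, were tested with limma on log-odds. Annotated starts and promoter windows are from RefSeq for GRCm38.p6, in which 69 of the 94 members matched by symbol. The labels describe 1 flow cell lane for all libraries, so no batch could be compared.

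Named genes are the 3 highest members per role, the 12 of smallest unadjusted p, non-overlapping members of at least 1.25-fold, a fixed set of 13 axonal, glial and firing-related members, the 5 partners and the 5 isoforms of smallest p. Kcnj3, Kcnj8, Kcnj9, Kcnk2, Kcnk4, Kcnk10, Kcnk12, Kcnq1, Abcc8, Abcc9 and the members below 1 FPKM were named after their values were seen, as were the 7 ratios. Some genes, and a sequence, that these rules name are not reported here. The members, lists and markers were chosen with earlier results of these data known. Alternatives changed the level, strand rule, pseudocount, filters, scaling, moderation, replicate block and libraries used. Coding bases only was added after seeing the data.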

Additional observations from a re-analysis of the deposited data

How the results depend on the processing

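No potassium channel gene, partner gene or member isoform had a limma adjusted p under 0.05 with any alternative, and the smallest for a member was 0.3798, for Kcnj11 without Gde2KO replicate 2. Between 37 and 74 members were tested, of which at most 3 had an unadjusted p under 0.05. By fragments per gene, 3 of 68 members had such a p, against 489 of 13908 genes. Without Gde2KO replicate 2, 3 of 61 members did, against 636 of 12879 genes. The 3 of 61 members stood against 532 of 12871 genes without WT replicate 2 and 410 of 12859 genes without WT replicate 3. Over 20 alternatives the log2 difference of 19 of 46 named members kept its sign and that of 27 did not. Of 906 such values, 19 moved by over 1 SD, most with the plain sum of transcripts. The calls over all genes, 15 in the main setting, came to 8 by fragments per gene, 4 with genes listed at 0 as missing, 1 with a mean of at least 5 FPKM and 4 with a pseudocount of 0.01. Leaving out 1 library gave 14 to 28, with 26 without Gde2KO replicate 2 and 28 without WT replicate 2. Gdpd5 had a log2 difference of -2.31, which was -1.45 (limma adjusted p = 0.0793) with the plain sum of transcripts and -2.37 to -2.20 with 1 library left out. For the last 2 and these counts the cause was not tested.

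Replicate numbers were not shown to pair the libraries. Deviations of same-numbered libraries correlated at 0.01, 0.04 and -0.07 across genes, and not every library correlated best with its own number. With the replicate block 2 genes were called in place of 15, the log2 difference of Gdpd5 was -2.31 with a limma adjusted p of 0.155, and 0 members, partners or member isoforms were called.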
